A study of Mus musculus with 10 samples.

Results

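The 40 genes described here drive or mark the cell division cycle, and they were measured in regulatory T cells (Tregs), the Foxp3-expressing CD4 T cells that restrain immune responses. They were taken by symbol from the 21556 genes of the count table. No measured value entered that rule, but the list was chosen with earlier results of these data known. A group of 17 acts at the entry into S phase and in DNA replication, and 23 act in the G2 phase and mitosis. The cells had been sorted by red fluorescent protein from a tumor or from a lymph node (LN) of mice aged 10 weeks, and the tumors had grown from an injected mouse melanoma line that induces lymphatic vessels. Control mice had the genotype MHCIIfl/fl, a floxed MHC class II allele without Cre. The other mice, MHCIIdeltaProx-1, carried in addition a Cre recombinase tied to Prox-1, a gene of lymphatic endothelial cells, and are called MHCII-deleted mice. Per the labels, it is thus the lymphatic endothelial cells that lack MHC class II, and both genotypes carry the floxed allele. There were 3 libraries each of control LN and control tumor, and 2 each of MHCII-deleted LN and MHCII-deleted tumor. The labels do not say how many mice gave cells to a library, so the spread between libraries may be in part technical.

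At the entry into S phase a dividing cell activates cyclin E and its kinase, and E2F factors switch on genes for licensing factors, the MCM helicase and the enzymes that make nucleotides. Later, cyclins A and B with Cdk1, the polo and Aurora kinases and the proteins of spindle and kinetochore carry the cell through mitosis. Genes of the first wave often carry E2F sites near their start, and genes of the second wave often carry a cell cycle genes homology region (CHR) together with CCAAT boxes. Tregs in tumors and in lymphoid tissue are known to hold a dividing fraction, and the transcripts of these genes are widely used as its markers.

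Promoter sequences show how the 2 waves differ in the genes measured here. The following lines give the 200 bases before the annotated start, 5′ to 3′ on the gene's strand, from the RefSeq promoter table (GRCm38.p6), with matches to E2F, CHR and CCAAT motifs in capitals on either strand. Mcm6, Mcm5 and Cdc6 stand for genes with E2F matches, Rrm2 is the gene whose larger change in tumor than in LN was called under every alternative tried, and Cdk1, Cdc20 and Top2a stand for the mitotic genes with CHR and CCAAT matches.
Mcm6, chr1:128359706-128359905, minus strand: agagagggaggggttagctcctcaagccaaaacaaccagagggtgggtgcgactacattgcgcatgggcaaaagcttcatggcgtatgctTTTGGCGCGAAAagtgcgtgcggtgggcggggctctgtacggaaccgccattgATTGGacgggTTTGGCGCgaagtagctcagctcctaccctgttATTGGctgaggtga
Mcm5, chr8:75109309-75109508, plus strand: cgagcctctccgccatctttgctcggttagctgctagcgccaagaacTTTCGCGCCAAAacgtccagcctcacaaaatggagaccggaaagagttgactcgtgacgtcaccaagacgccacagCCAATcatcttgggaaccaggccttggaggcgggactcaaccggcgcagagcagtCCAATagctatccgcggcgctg
Cdc6, chr11:98907951-98908150, plus strand: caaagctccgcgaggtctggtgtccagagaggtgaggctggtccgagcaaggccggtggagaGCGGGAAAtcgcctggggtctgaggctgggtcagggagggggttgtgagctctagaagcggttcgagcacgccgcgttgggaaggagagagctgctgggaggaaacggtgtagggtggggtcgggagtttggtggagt
Rrm2, chr12:24708054-24708253, plus strand: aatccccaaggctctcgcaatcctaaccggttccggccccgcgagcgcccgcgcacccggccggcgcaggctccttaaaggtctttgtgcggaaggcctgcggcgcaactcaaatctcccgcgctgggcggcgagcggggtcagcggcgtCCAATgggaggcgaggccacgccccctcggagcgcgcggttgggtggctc
Cdk1, chr10:69352913-69353112, minus strand: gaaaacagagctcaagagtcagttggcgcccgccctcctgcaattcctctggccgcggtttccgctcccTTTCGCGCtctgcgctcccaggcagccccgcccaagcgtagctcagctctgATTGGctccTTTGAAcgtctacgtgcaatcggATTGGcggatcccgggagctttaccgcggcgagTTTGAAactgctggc
Cdc20, chr4:118437344-118437543, minus strand: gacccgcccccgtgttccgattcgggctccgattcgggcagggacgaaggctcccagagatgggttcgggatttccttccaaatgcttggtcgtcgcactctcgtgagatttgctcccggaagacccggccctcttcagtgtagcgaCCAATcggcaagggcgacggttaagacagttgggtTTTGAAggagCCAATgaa
Top2a, chr11:99024190-99024389, minus strand: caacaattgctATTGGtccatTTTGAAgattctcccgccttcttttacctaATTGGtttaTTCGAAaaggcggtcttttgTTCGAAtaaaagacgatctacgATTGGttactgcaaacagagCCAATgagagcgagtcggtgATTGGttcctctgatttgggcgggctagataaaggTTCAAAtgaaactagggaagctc

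The motifs searched were TTTGGCGC, TTTCCCGC, TTTGCCGC and TTTCGCGC for E2F, TTTGAA and TTCGAA for CHR, and CCAAT, each on both strands, in the window from 250 bases before to 50 bases after the start. E2F matches on opposite strands can overlap, as in the capital stretch of Mcm5, where both strands match. Such a window was found for 33 of the 40 genes. Ccna2, Ccne2, Aurkb, Kif20a, Tpx2, Stmn1 and Mcm4 had none. An E2F motif stood in 7 of 15 replication genes (46.7%) and in 1 of 18 mitotic genes (5.56%), Cdk1, against 4.49% of the 10821 tested genes with a window and 2.61% of all 27025. A CHR stood in 2 of 15 replication genes (13.3%) and in 14 of 18 mitotic genes (77.8%), against 16.4% of the tested genes and 21.7% of all. CCAAT boxes were common everywhere, in 60.0% of replication genes, 88.9% of mitotic genes, 42.7% of the tested genes and 41.1% of all. A match describes letters in a window and not a bound site. These shares describe the genes. No measured value enters them, except that the tested genes are those that passed a filter on low counts.

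**Figure D1:**
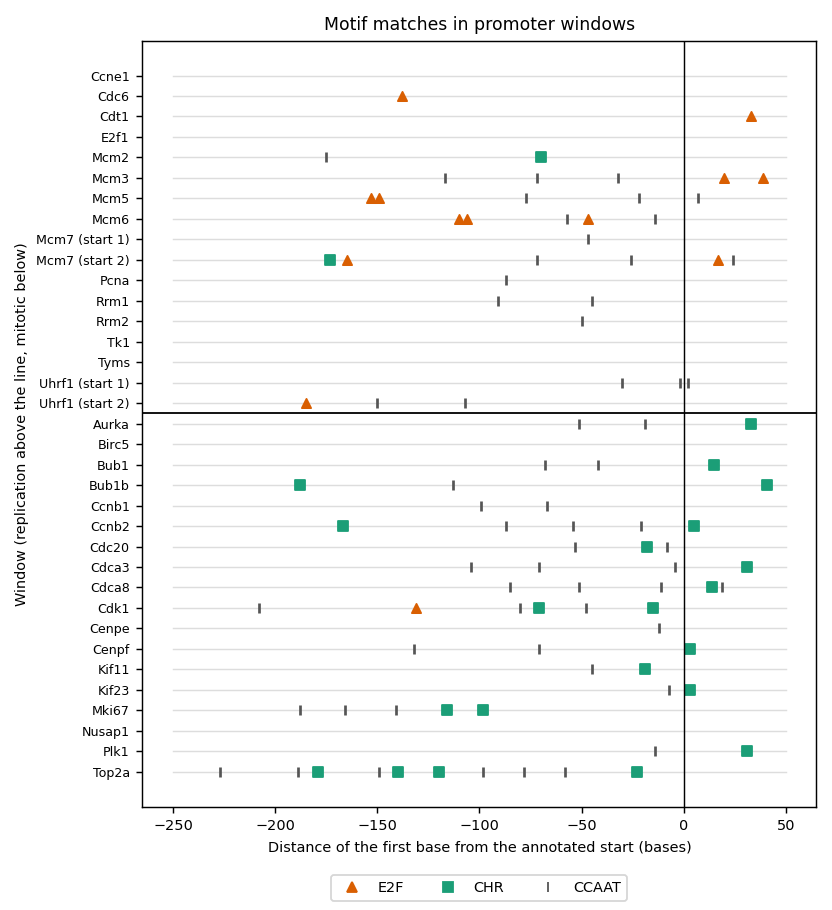
Motif matches in the promoter windows of the 33 genes with one. Each row is a window (Mcm7 and Uhrf1 have a pair of annotated starts each), the horizontal axis is the distance of the match's first base from the annotated start in bases, and the marker gives the motif. E2F matches lie mainly in replication genes (7 of 15) and CHR matches mainly in mitotic genes (14 of 18).

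Totals ran from 28539329 to 35736175 counts per library, and all 40 genes passed the filter on low counts. The lowest count of any of them in a library was 106 (E2f1) and the highest 18028 (Mcm6). Levels are given as CPM, that is, counts relative to the total of their library, with TMM normalisation, and a fold change is a log2 value with its standard error from edgeR's quasi-likelihood test, called at an adjusted p (Benjamini-Hochberg over 13920 genes) under 0.05. The 8 Treg markers, Foxp3 among them, were detected in every group, with a sum of 4138 to 4623 CPM in control LN, 3182 to 3581 in MHCII-deleted LN, 11189 to 12192 in control tumors and 4603 to 5542 in MHCII-deleted tumors. All 24 pan-T cell markers were detected in every group too, and their sum was 18852, 18678 and 17696 CPM in the control tumors but 8185 and 9256 CPM in the MHCII-deleted tumors. The 15 melanoma markers summed to 16.4 to 34.9 CPM in the LN libraries, with Sox10 at 0 in MHCII-deleted LN, to 4948, 5867 and 9625 CPM in control tumors and to 19672 and 23903 CPM in MHCII-deleted tumors. All 15 were detected in both tumor groups. Tumor cells divide, and in bulk libraries fewer cells of a type and less RNA per cell cannot be told apart. A GC index, the mean log2 deviation of genes with a GC-rich window (over 75% GC in 100 bases of a transcript) minus that of the other genes, was -0.25 to -0.18 in control LN, 0.081 to 0.14 in MHCII-deleted LN, -0.054 to 0.024 in control tumors, and 0.087 and 0.33 in libraries 1 and 2 of the MHCII-deleted tumors.

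Both waves were lowest in the tumors of control mice. The summed level of the 17 replication genes was 2575, 2250.5 and 2626 CPM in control LN, 2310.3 and 2199 CPM in MHCII-deleted LN, 1947, 1732 and 1664 CPM in control tumors and 2172 and 2316 CPM in MHCII-deleted tumors. The control tumors lay below every other library, and the 3 other groups overlapped. The sum of the 23 mitotic genes was 1426, 1115 and 1399 CPM in control LN, 1221 and 1070.0 CPM in MHCII-deleted LN, 709, 798 and 682 CPM in control tumors and 1115 and 1185 CPM in MHCII-deleted tumors. Again only the control tumors stood apart, at 729.6 ± 61 CPM (SD, n = 3) against 1313 ± 172 CPM (SD, n = 3) in control LN and 1149.9 ± 49.2 CPM (SD, n = 2) in MHCII-deleted tumors. Per 100 CPM of replication genes there were 36.4, 46.1 and 41 CPM of mitotic genes in the control tumors, and 51.3 and 51.2 CPM in the MHCII-deleted tumors. This ratio ran from 48.7 to 55.4 CPM in the 5 LN libraries and lay above all control tumors. These sums and ratios describe the libraries and carry no test.

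**Figure D2:**
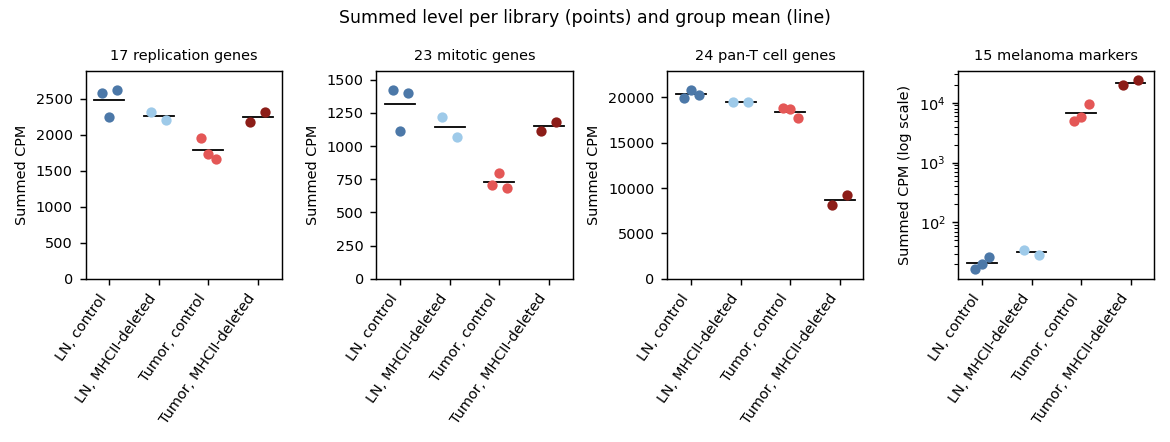
Summed level of the replication genes and of the mitotic genes in each library (CPM, linear axis), by group, with the 24 pan-T cell markers (linear axis) and the 15 melanoma markers (log axis) beside them. Points are single libraries and lines the group means. The control tumors lie lowest in both sums, at 1664 to 1947 CPM for replication and 682 to 798 CPM for mitosis.

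In control mice, 26 of the 40 genes were called lower in tumor than in LN libraries and 1, Cdt1, was called higher. Over all tested genes, 16.1% were called lower and 22.8% higher. Lower calls covered 9 of 17 replication genes, with a median log2 difference of -0.47, and 17 of 23 mitotic genes, with a median of -0.88, beside 0.078 over all genes. Among the Mcm, Rrm and Pcna genes alone, 7 of 9 were lower, with a median of -0.55. The largest falls were in Kif20a, Kif11, Bub1b and Plk1, and the G1/S regulators Ccne1, Ccne2 and E2f1 had no call. Scaling to pan-T cell genes instead of TMM gave 21 lower and 1 higher, with the median of all genes at 0.22. Over all 13920 genes it called 1321 lower and 3670 higher. Melanoma markers summed to 16.4 to 26.9 CPM in these LN libraries and to 4948 to 9625 CPM in these tumors. Their part in this comparison was not tested.

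Of the 40 genes, 23 were called higher in MHCII-deleted than in control tumor libraries and none lower. Over all tested genes, 15% were called higher and 13.7% lower. Here and below, a rise or fall with the deletion means such a difference between the libraries of both genotypes. Calls covered 8 of 17 replication genes, with a median of 0.30, and 15 of 23 mitotic genes, with a median of 0.75, beside 0.10 over all genes. Of the Mcm, Rrm and Pcna genes 3 of 9 were called (Mcm2, Rrm1 and Rrm2), with a median of 0.20. Cdk1, Mcm2 and Rrm2 kept their call in every alternative tried, and the other 20 lost it in at least 1. A fit with the GC index as covariate, an alternative chosen after seeing the data, left 4 calls, where 1072 of all 13920 genes were called higher. A fit to the 5 tumor libraries alone left 9, where 1132 of all 13920 were called higher. Pan-T scaling called all 40 higher, but it also moved the median of all genes to 1.19 and the share of higher calls among all called genes from 52.3% to 99.4%. Medians on that scale were 1.39 for replication and 1.83 for mitosis. A change of scaling shifts all genes by nearly the same amount, so their distance from the median of all genes could hardly change. The melanoma markers, 4948, 5867 and 9625 CPM in control tumors and 19672 and 23903 CPM in MHCII-deleted tumors, moved with this comparison, and their part in it was not tested.

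In the LN, no member was called in either direction by edgeR's quasi-likelihood test, where 1.07% of tested genes were called higher and 0.0359% lower. DESeq2 also called 0 members, where it called 596 of all 13920 genes higher and 51 lower. By edgeR's test, 2 members had an unadjusted p under 0.05, where 1298 of all tested genes had. Medians were -0.12 for replication and -0.19 for mitosis, beside 0 over all genes. With only the LN libraries in the fit, 1 member was called higher, where 787 of all 13920 genes were called higher and 23 lower. Over all genes, limma-voom called 751 higher and 31 lower, and pan-T scaling 411 and 6. Other settings called fewer. The 149 higher and 5 lower calls over all genes became 0 and 0 without any 1 of the 5 LN libraries, with the replicate block or with the GC index, and 22 and 1 with RLE size factors.

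In MHCII-deleted mice, tumor and LN libraries differed in 10 members: 4 were higher in the tumor (Cdca3, Cdk1, Mcm2 and Rrm2) and 6 lower (Mcm4, Mcm5, Mcm6, Mcm7, Cdca8 and Kif11). Over all tested genes, 24.3% were called higher and 20.1% lower. Medians were 0.20 for replication and 0.046 for mitosis, beside 0.066 over all genes. This split depended on the scaling. Pan-T scaling gave 39 higher and 0 lower, with the median of all genes at 1.23 and the higher share of all calls at 96.2% in place of 54.8%, and all 6 lower genes changed sign. Size factors by the RLE method left 2 of the lower calls, where 2347 of all 13920 genes were called lower. Melanoma markers summed to 28.1 to 34.9 CPM in these LN libraries and to 19672 and 23903 CPM in these tumors. Their part in this comparison was not tested. This comparison shares the MHCII-deleted tumors with the deletion effect in tumor, as the tissue effect in control mice shares the control tumors, so their values are given side by side and no overlap is counted.

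The test of the difference between the deletion effects called 13 members, all with a larger change in tumor than in LN, where 4.14% of tested genes were called in that direction and 6.57% in the other. They were 5 replication genes (Cdc6, Mcm2, Uhrf1, Rrm1 and Rrm2) and 8 mitotic genes (Ccnb2, Cdk1, Plk1, Cdca3, Kif20a, Tpx2, Cenpf and Top2a). Medians were 0.57 for replication and 0.93 for mitosis, beside -0.012 over all genes. Pan-T scaling called 38 members higher, with the median of all genes at 1.01 and the higher share of all calls at 99.6% in place of 38.6%. Only Rrm2 kept its call in every alternative: without MHCII-deleted LN library 2, the other 12 were lost and 1 call was left. Of the other libraries, omission of control LN library 1 or 3 lost 10 calls each, of MHCII-deleted LN library 1 lost 9, of MHCII-deleted tumor library 1 lost 7, of any 1 control tumor lost 5, and of control LN library 2 or MHCII-deleted tumor library 2 lost 3.

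**Figure D3:**
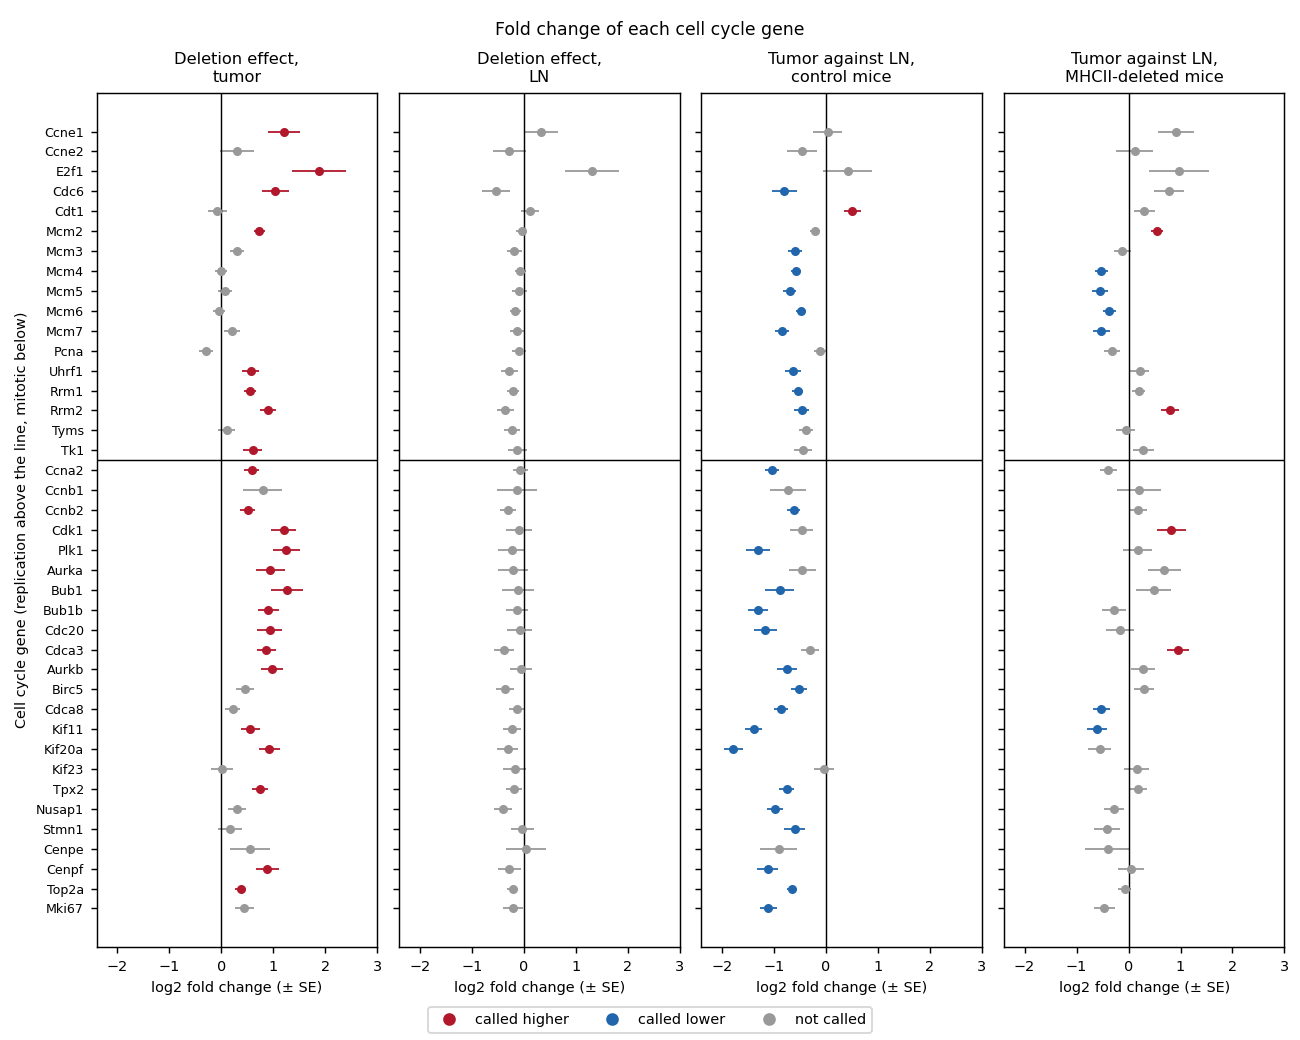
Log2 fold change of each of the 40 genes (horizontal axis, bars are the standard error) in the deletion effects and tissue effects. Red and blue points were called higher and lower at an adjusted p under 0.05, and grey points were not called. Points of the tumor deletion effect lie above 0 for 36 of 40 genes and those of the tissue effect in control mice below 0 for 37 of 40.

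Of the 3 G1/S regulators, Ccne1 and E2f1 rose with the deletion in tumor, and none was called between tissues. Ccne1, cyclin E1 on chr7:38097984-38107534 (GRCm38), was at 19, 17.1 and 15.6 CPM in the control LN, 23.2 and 20.4 CPM in the MHCII-deleted LN, 21.8, 9.41 and 21.7 CPM in the control tumors and 38.9 and 42.9 CPM in the MHCII-deleted tumors. Both MHCII-deleted tumor libraries lay above all others, and the rise against control tumors was 1.21 ± 0.31 (SE, adjusted p = 0.0164). E2f1, the transcription factor that gives the E2F family its name, was at 6.25, 3.67 and 3.54 CPM in the control LN, 11.2 and 11.1 CPM in the MHCII-deleted LN, 6.47, 4.56 and 6.89 CPM in the control tumors and 8.17 and 35.8 CPM in the MHCII-deleted tumors. Its rise of 1.88 ± 0.52 (SE, adjusted p = 0.0234) rested on library 2, and library 1 lay near the control tumors. Without library 2 the difference was 0.45 (adjusted p = 0.48), and a fit with the GC index as covariate gave -0.14 (adjusted p = 0.883). E2f1 and both cyclin E genes hold a GC-rich window, and library 2 had the highest GC index. The part of GC content in the E2f1 rise was not tested. Ccne2, cyclin E2, was at 13.1 ± 3.68 CPM (SD, n = 3) in control tumors and 16.2 ± 0.449 CPM (SD, n = 2) in MHCII-deleted tumors and had no call in any comparison, and 17.4% of its exon bases overlap Ints8.

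The licensing factors, which load the MCM helicase onto origins, differed in their calls. Cdc6 was at 30.9, 20.6 and 34 CPM in the control LN, 23.4 and 15.8 CPM in the MHCII-deleted LN, 16.8, 12.9 and 19.2 CPM in the control tumors and 31.9 and 35.3 CPM in the MHCII-deleted tumors. Control tumors lay below control LN, with a difference of -0.81 ± 0.24 (SE, adjusted p = 0.0247), and MHCII-deleted tumors lay above control tumors by 1.04 ± 0.27 (SE, adjusted p = 0.0163). Its partner Cdt1, by contrast, was higher in control tumors than in control LN, at 66.6 ± 12.7 against 47 ± 5.48 CPM (SD, n = 3 each), by 0.50 ± 0.16 (SE, adjusted p = 0.0339). It did not pass the test for the deletion in tumor, at -0.073 (adjusted p = 0.792).

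The 6 subunits of the MCM helicase, which unwinds DNA at the fork, had 1 call for the deletion in tumor, Mcm2. Mcm2, on chr6:88883474-88898780, was at 229, 215 and 246 CPM in the control LN, 239.6 and 209.5 CPM in the MHCII-deleted LN, 208, 206 and 183 CPM in the control tumors and 323 and 338 CPM in the MHCII-deleted tumors. The MHCII-deleted tumors lay above all 8 other libraries, by 0.73 ± 0.10 (SE, adjusted p = 0.00104) against control tumors and 0.56 ± 0.12 (SE, adjusted p = 0.00335) against MHCII-deleted LN. Mcm6, the member with the highest level per kilobase of exon in LN of either genotype and in control tumors (114, 102 and 81.3 CPM per kb), was at 547, 486 and 555 CPM in the control LN, 441 and 508 CPM in the MHCII-deleted LN, 417, 379.9 and 341 CPM in the control tumors and 365 and 369 CPM in the MHCII-deleted tumors. Here both tumor groups lay below all LN libraries, and the deletion made no called difference, at -0.049 (adjusted p = 0.774). Mcm4, Mcm5 and Mcm7 did likewise: they were lower in control tumors than LN by -0.58, -0.70 and -0.85, lower in MHCII-deleted tumors than LN by -0.52, -0.54 and -0.52, and had no call for the deletion in tumor, at -0.0065, 0.071 and 0.20. The calls in MHCII-deleted mice change sign under pan-T scaling, to 0.64 for Mcm4, 0.62 for Mcm5, 0.80 for Mcm6 and 0.64 for Mcm7. Mcm3 fell in control tumors (-0.60 (adjusted p = 0.00478)) and had no other call. Whether Mcm2 differed from the other subunits was not tested. Of the exon bases of Mcm7, 7.25% overlap Ap4m1, and reads from overlapping genes cannot be told apart where counting ignores strand.

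Pcna, the sliding clamp, was at 70.7, 64.3 and 77.6 CPM in the control LN, 66.9 and 65.9 CPM in the MHCII-deleted LN, 75.4, 57.4 and 63.5 CPM in the control tumors and 54.2 and 52.7 CPM in the MHCII-deleted tumors and had no call in any comparison. Uhrf1, which guides methylation of newly made DNA, fell in control tumors against LN by -0.63 ± 0.15 (SE, adjusted p = 0.00811) and rose with the deletion in tumor by 0.57 ± 0.16 (SE, adjusted p = 0.0281).

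The genes of nucleotide supply included both subunits of ribonucleotide reductase. Rrm2, on chr12:24708241-24714146, encodes the small subunit of this enzyme, which makes deoxynucleotides. It was at 196, 151 and 234 CPM in the control LN, 159 and 145 CPM in the MHCII-deleted LN, 149.6, 137 and 134 CPM in the control tumors and 266 and 259 CPM in the MHCII-deleted tumors. MHCII-deleted tumors lay above all other libraries, and control tumors lay below control LN but overlapped MHCII-deleted LN. Rrm2 rose with the deletion in tumor by 0.91 ± 0.16 (SE, adjusted p = 0.0026), and the difference from the effect in LN was 1.26 ± 0.22 (SE, adjusted p = 0.00986). In MHCII-deleted tumors it had the highest level per kilobase of all 40 genes, at 94.8 CPM per kb. Rrm1, the large subunit, was at 249, 209 and 267 CPM in the control LN, 222 and 199 CPM in the MHCII-deleted LN, 173, 165 and 159 CPM in the control tumors and 242 and 242 CPM in the MHCII-deleted tumors, and rose with the deletion in tumor by 0.55 ± 0.11 (SE, adjusted p = 0.00677). Tk1, thymidine kinase of the salvage path, rose by 0.61 ± 0.18 (SE, adjusted p = 0.0325). Tyms, thymidylate synthase, lay between 43.8 and 68.8 CPM in all libraries and had no call.

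**Figure D4:**
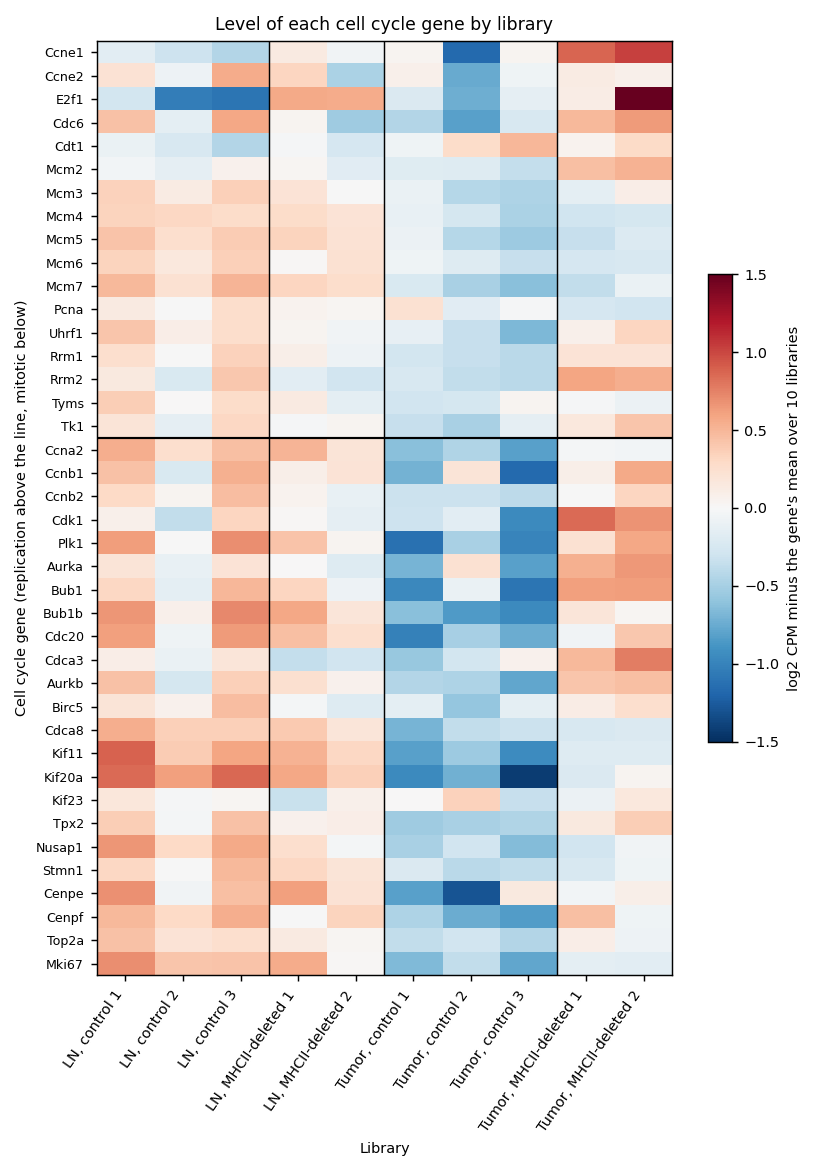
Level of each gene in each library as the log2 difference from its mean over the 10 libraries, by role (rows) and group (columns). Colours end at 1.5 on either side, which E2f1 exceeds in library 2 of the MHCII-deleted tumors (35.8 CPM). Most rows are lowest in the 3 control tumors.

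Among mitotic cyclins and kinases, 5 of 6 rose with the deletion in tumor and 3 of 6 were lower in control tumor than LN. Cdk1, the kinase that drives entry into mitosis, on chr10:69335146-69352938, was at 45.3, 33.2 and 53.5 CPM in the control LN, 43.4 and 39 CPM in the MHCII-deleted LN, 34.7, 38.3 and 22.2 CPM in the control tumors and 77.2 and 68.5 CPM in the MHCII-deleted tumors. Its MHCII-deleted tumors lay above all other libraries, by 1.2 ± 0.25 (SE, adjusted p = 0.0062) against control tumors and 0.82 ± 0.27 (SE, adjusted p = 0.0331) against MHCII-deleted LN. Plk1, the polo kinase of mitotic entry and exit, was at 56, 36.1 and 58.8 CPM in the control LN, 48.6 and 37.2 CPM in the MHCII-deleted LN, 16.6, 26 and 18.3 CPM in the control tumors and 42.5 and 54.2 CPM in the MHCII-deleted tumors. Here the control tumors lay below every LN library, by -1.31 ± 0.24 (SE, adjusted p = 0.00203) against control LN, and MHCII-deleted tumors lay within the LN range, above control tumors by 1.25 ± 0.26 (SE, adjusted p = 0.00643). Ccna2, cyclin A2, fell in control tumors by -1.04 ± 0.13 (SE, adjusted p = 0.000254) and rose with the deletion by 0.59, and 12.5% of its exon bases overlap Exosc9. Ccnb2, cyclin B2, moved by -0.63 and 0.51 in the same comparisons. Aurka, the kinase of the spindle poles, rose with the deletion by 0.95 ± 0.28 (SE, adjusted p = 0.0307). Ccnb1, cyclin B1, had no call, at 11.7 ± 5.82 CPM (SD, n = 3) in control and 20.3 ± 4.68 CPM (SD, n = 2) in MHCII-deleted tumors.

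All 4 checkpoint and anaphase regulators rose with the deletion in tumor. Bub1, a kinase of the spindle checkpoint, was at 27.4, 19.9 and 31.2 CPM in the control LN, 27.6 and 20.8 CPM in the MHCII-deleted LN, 11.3, 20.5 and 10.3 CPM in the control tumors and 33.6 and 33.9 CPM in the MHCII-deleted tumors. The MHCII-deleted tumors exceeded all other libraries, with a rise of 1.27 ± 0.31 (SE, adjusted p = 0.0132). Bub1b, its partner in the checkpoint, rose by 0.91 and differed by -1.31 between control tumor and LN. Cdc20, which activates the anaphase-promoting complex, rose by 0.93 and differed by -1.17 between control tumor and LN. Cdca3, which takes part in the breakdown of the Cdk1 inhibitor Wee1, was at 43.6, 37.8 and 46.2 CPM in the control LN, 31.7 and 33.4 CPM in the MHCII-deleted LN, 27.3, 33.6 and 42.4 CPM in the control tumors and 56.7 and 69.1 CPM in the MHCII-deleted tumors. Both MHCII-deleted tumors lay above all other libraries, by 0.95 ± 0.21 (SE, adjusted p = 0.005) against MHCII-deleted LN.

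The chromosomal passenger complex corrects faulty attachments to the spindle. Its 3 genes among the 40 all fell in control tumors: Aurkb by -0.76, Birc5 (survivin) by -0.53 and Cdca8 (borealin) by -0.88. Of these 3, only the kinase Aurkb was called for the deletion in tumor, at 28.5 ± 3.62 CPM (SD, n = 3) in control and 56.2 ± 0.90 CPM (SD, n = 2) in MHCII-deleted tumors, a rise of 0.98 ± 0.21 (SE, adjusted p = 0.00691). Birc5 missed the threshold at 0.46 (adjusted p = 0.0663) and Cdca8 at 0.22 (adjusted p = 0.275). Whether the 3 genes differ from each other was not tested.

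Of the 6 kinesins and spindle proteins, 5 fell in control tumors against LN and 3 rose with the deletion. Kif20a, a kinesin of the midzone and of cytokinesis, was at 64.8, 55.4 and 65.6 CPM in the control LN, 54 and 46.1 CPM in the MHCII-deleted LN, 18.5, 22 and 13.5 CPM in the control tumors and 31 and 37.2 CPM in the MHCII-deleted tumors. Control tumors lay below all other libraries and MHCII-deleted tumors below the LN, with differences of -1.78 ± 0.19 (SE, adjusted p = 7.14e-05) for tissue in control mice and 0.92 ± 0.20 (SE, adjusted p = 0.00855) for the deletion in tumor. Of its exon bases, 29.3% overlap Cdc23, so part of its reads may belong there. Kif11, the kinesin that separates the spindle poles, showed the same order, at 75.7 ± 13.5, 64.9 ± 6.66, 28.8 ± 4.1 and 42.6 ± 0.129 CPM (SD, n = 3, 2, 3 and 2) in control LN, MHCII-deleted LN, control tumors and MHCII-deleted tumors. It was lower in tumor than LN in both genotypes, by -1.39 and -0.61, and the latter turned to 0.56 under pan-T scaling. Tpx2, which activates Aurora A on the spindle, rose with the deletion by 0.75 ± 0.15 (SE, adjusted p = 0.00588). Nusap1, which bundles spindle microtubules, fell in control tumors by -0.99, and Stmn1, which destabilises microtubules, by -0.61. Kif23, another kinesin of cytokinesis, lay between 25.9 and 41.9 CPM in all libraries, with no call.

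At centromere and chromosome, Top2a, the topoisomerase that untangles sister chromatids, was at 175, 149 and 153 CPM in the control LN, 142 and 132 CPM in the MHCII-deleted LN, 100.3, 106 and 95.5 CPM in the control tumors and 139 and 122 CPM in the MHCII-deleted tumors. The control tumors lay below all other libraries, by -0.66 ± 0.10 (SE, adjusted p = 0.000676) against control LN, and MHCII-deleted tumors exceeded them by 0.37 ± 0.11 (SE, adjusted p = 0.0311). Mki67, which encodes the proliferation marker Ki-67, was at 90.7, 74.7 and 75.4 CPM in the control LN, 82.5 and 56.6 CPM in the MHCII-deleted LN, 35.3, 43.4 and 32.6 CPM in the control tumors and 50.8 and 50.1 CPM in the MHCII-deleted tumors. It fell in control tumors by -1.11 ± 0.17 (SE, adjusted p = 0.000664), and the deletion in tumor missed the threshold at 0.44 (adjusted p = 0.0983), although both MHCII-deleted libraries exceeded all control tumors. Cenpf, a kinetochore protein, fell by -1.12 in control tumors and rose by 0.89 with the deletion. Cenpe, a kinetochore motor, had no call, at -0.91 (adjusted p = 0.0644) between control tumor and LN.

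Single libraries decided many calls. For the deletion in tumor, 9 of 23 calls held in each omission of a library. Without MHCII-deleted tumor library 2, 10 calls were lost: Ccne1 (1.14), E2f1 (0.45), Cdc6 (0.97), Uhrf1 (0.45), Tk1 (0.47), Ccnb2 (0.34), Aurka (0.88), Cdc20 (0.69), Cdca3 (0.72) and Kif11 (0.57), at adjusted p = 0.0504 to 0.48. That left 13. Leaving out MHCII-deleted tumor library 1, 6 calls were lost: Ccna2 (0.58), Aurka (1.01), Bub1b (0.83), Kif11 (0.56), Cenpf (0.61) and Top2a (0.28), at adjusted p = 0.0528 to 0.171. Without control tumor library 1, 7 calls were lost: E2f1 (1.94), Tk1 (0.59), Ccnb2 (0.52), Aurka (0.80), Cdc20 (0.81), Kif11 (0.54) and Top2a (0.37), at adjusted p = 0.0502 to 0.0826. Omissions of the other control tumors did less. Without control tumor library 2, 4 calls were lost: E2f1 (1.72), Uhrf1 (0.58), Tk1 (0.53) and Ccnb2 (0.52), at adjusted p = 0.0542 to 0.0834. On omitting control tumor library 3, 5 calls were lost: Uhrf1 (0.44), Ccnb2 (0.49), Aurka (0.76), Kif11 (0.48) and Top2a (0.34), at adjusted p = 0.0617 to 0.0919. LN libraries mattered little in this comparison, through the shared spread. Tk1 lost its call without control LN library 1 (0.61, adjusted p = 0.0512) or MHCII-deleted LN library 2 (0.61, adjusted p = 0.0502), and Kif11 without control LN library 3 (0.56, adjusted p = 0.0527).

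For tissue in control mice, 21 of 27 calls held in each omission. Leaving out control LN library 1, 4 calls were lost: Cdc6 (-0.74), Rrm2 (-0.46), Bub1 (-0.86) and Stmn1 (-0.59), at adjusted p = 0.0681 to 0.103. On omitting control LN library 3, 6 calls were lost: Cdc6 (-0.66), Cdt1 (0.42), Rrm2 (-0.31), Bub1 (-0.75), Birc5 (-0.41) and Stmn1 (-0.49), at adjusted p = 0.0835 to 0.135. Cdt1 (0.50, adjusted p = 0.0834) was lost without control LN library 2, and Stmn1 was lost without either MHCII-deleted LN library (-0.60 each, adjusted p = 0.0595 to 0.0604). The control tumors touched the same few genes. Without control tumor library 1, 3 calls were lost: Cdc6 (-0.83), Bub1 (-0.76) and Stmn1 (-0.66), at adjusted p = 0.053 to 0.0909. Leaving out control tumor library 2, 5 calls were lost: Cdc6 (-0.66), Cdt1 (0.49), Rrm2 (-0.45), Birc5 (-0.40) and Stmn1 (-0.57), at adjusted p = 0.0609 to 0.0885. On omitting control tumor library 3, 4 calls were lost: Cdt1 (0.36), Rrm2 (-0.44), Bub1 (-0.72) and Stmn1 (-0.58), at adjusted p = 0.0728 to 0.117. For tissue in MHCII-deleted mice, 4 of 10 calls held in each omission: Cdca3, Mcm2, Mcm4 and Rrm2. Leaving out MHCII-deleted LN library 1, 5 calls were lost: Mcm5 (-0.49), Mcm7 (-0.49), Cdk1 (0.90), Cdca8 (-0.42) and Kif11 (-0.50), at adjusted p = 0.0832 to 0.152. On omitting MHCII-deleted LN library 2, 3 calls were lost: Mcm6 (-0.27), Mcm7 (-0.55) and Cdk1 (0.75), at adjusted p = 0.0701 to 0.198. With MHCII-deleted tumor library 1 left out, 6 calls were lost: Mcm5 (-0.47), Mcm6 (-0.36), Mcm7 (-0.40), Cdk1 (0.73), Cdca8 (-0.52) and Kif11 (-0.61), at adjusted p = 0.0751 to 0.134. The second tumor library gave a like result. Without it (MHCII-deleted tumor library 2), 4 calls were lost: Mcm6 (-0.38), Cdk1 (0.91), Cdca8 (-0.53) and Kif11 (-0.60), at adjusted p = 0.0526 to 0.0757.

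The ratio to the markers of each cell type moved in opposite directions. Per 1000 CPM of pan-T cell markers, the mitotic genes stood at 37.6, 42.7 and 38.5 CPM in control tumors and 136 and 128 CPM in MHCII-deleted tumors, and the replication genes at 103, 92.7 and 94 and 265 and 250.2 CPM. Both MHCII-deleted tumors also exceeded every LN library, whose highest were 71.4 CPM for mitosis and 129.8 CPM for replication. Per 1000 CPM of melanoma markers, the mitotic genes stood at 143, 136 and 70.8 CPM in control tumors and 56.7 and 49.6 CPM in MHCII-deleted tumors, and the replication genes at 393, 295 and 173 and 110.4 and 96.9 CPM. The cell cycle genes were thus higher relative to pan-T cell markers and lower relative to melanoma markers in MHCII-deleted than in control tumors. From control to MHCII-deleted tumors the pan-T cell sum changed 0.474-fold and the melanoma sum 3.198-fold. The replication sum changed 1.26-fold and the mitotic sum 1.576-fold. A gene with an unchanged level would show the same directions, so the directions follow from the markers and say little about cell cycle genes. How much of the RNA of the cell cycle genes came from Tregs and how much from tumor cells was not tested. Myeloid markers summed to 130.3, 127 and 229.9 CPM in control and 433 and 469 CPM in MHCII-deleted tumors, with 15 and 16 of 16 detected and Cd163 at 0 in control tumors. Stromal and endothelial markers, all 15 detected in both, summed to 576, 4292 and 2647 CPM in control and 397 and 955 CPM in MHCII-deleted tumors. B cell and plasma cell markers, 10 of 10 detected in every group, were highest in the LN at 1237 to 1813 CPM and lay at 357 to 687 CPM in the tumors. CD8 T and NK markers were low throughout, at 43.4 to 97.4 CPM, with Ncr1 at 0 in both LN groups. The part of these cells in the results was not tested.

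**Figure D5:**
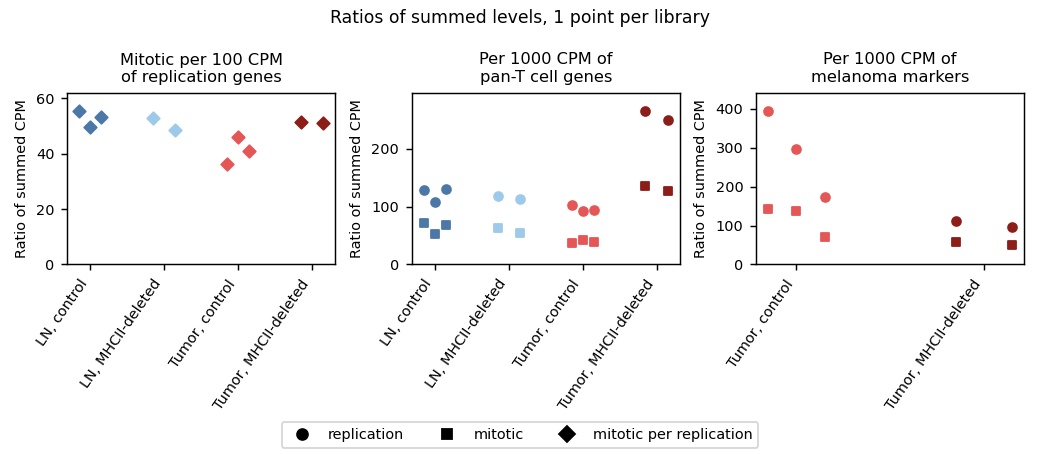
Ratios of summed levels in each library: mitotic per 100 CPM of replication genes, and both sums per 1000 CPM of pan-T cell markers and of melanoma markers (tumor libraries only). Points are libraries, on linear axes from 0. The MHCII-deleted tumors are highest per pan-T marker (250.2 and 265 CPM for replication) and lowest per melanoma marker (96.9 and 110.4 CPM).

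Further genes of the same pathways, listed with earlier results known, were counted the same way. Of 45 other replication genes, 20 were lower and none higher in control tumors than LN, where 16.1% of all tested genes were called lower and 22.8% higher. With the deletion in tumor 7 were higher, which is close to the 15% of all genes called higher, and 1 lower, where 13.7% of all were. The median of the 45 log2 differences was 0.20. Mcm10, which helps to start the fork, rose with the deletion from 9.58 ± 2.35 (SD, n = 3) to 22.9 ± 5.26 CPM (SD, n = 2), by 1.26 ± 0.27 (SE, adjusted p = 0.00729). The origin subunits Orc2 and Orc4 rose by 0.89 ± 0.14 (SE, adjusted p = 0.0016) and 0.48 ± 0.12 (SE, adjusted p = 0.0142), though 29.8% of the exon bases of Orc2 overlap Nif3l1. Slbp, which binds histone mRNA, was the 1 that fell, by -0.43 ± 0.10 (SE, adjusted p = 0.0143). In control tumors against LN, the largest falls by p were Asf1b, a histone chaperone (-1.25 ± 0.15 (SE, adjusted p = 0.000146)), Dnmt1, the maintenance methyltransferase (-1.0 ± 0.12 (SE, adjusted p = 0.000196)), and Orc5 (-0.98 ± 0.13 (SE, adjusted p = 0.000327)). In MHCII-deleted mice, 4 were higher in the tumor, among them Chaf1b, a subunit of a histone chaperone (1.13 ± 0.22 (SE, adjusted p = 0.00234)), and 8 lower, among them Timeless (-1.25 ± 0.23 (SE, adjusted p = 0.00152)), beside 24.3% and 20.1% over all.

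Of 56 other mitotic genes, 35 were lower and 1 higher in control tumors than LN, beside 16.1% lower and 22.8% higher over all tested genes. With the deletion in tumor 21 rose and 4 fell, beside 15% and 13.7% over all. The median of the 56 log2 differences was 0.64. In MHCII-deleted mice the tissue split was 3 higher and 4 lower, beside 24.3% and 20.1% over all. Espl1, the separase that cuts cohesin, was at 29.6 ± 2.59 CPM in control LN, 24 ± 2.98 in MHCII-deleted LN, 8.3 ± 1.7 in control tumors and 21.4 ± 1.04 in MHCII-deleted tumors (SD, n = 3, 2, 3 and 2). It fell by -1.83 ± 0.19 (SE, adjusted p = 7e-05) in control tumors and rose by 1.36 ± 0.21 (SE, adjusted p = 0.00143) with the deletion. Ncapg, a condensin subunit, rose by 1.19 ± 0.20 (SE, adjusted p = 0.00248), and Ckap2 by 1.1 ± 0.22 (SE, adjusted p = 0.00585). Not all followed: Smc4, another condensin subunit, fell with tissue in control mice (-1.55 ± 0.09 (SE, adjusted p = 1.48e-06)) and fell again with the deletion (-0.41 ± 0.10 (SE, adjusted p = 0.0118)). Pttg1, the securin that holds separase inactive, was higher in control tumors than LN (0.43 ± 0.15 (SE, adjusted p = 0.0475)) and fell with the deletion (-0.86 ± 0.17 (SE, adjusted p = 0.00564)). Cenpa, the histone of the centromere, fell with the deletion by -0.47 ± 0.12 (SE, adjusted p = 0.016). Anln, an actin-binding protein of cytokinesis, was higher in MHCII-deleted tumors than LN by 2.9 ± 0.57 (SE, adjusted p = 0.00259).

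Of 27 G1 cyclins, kinases and transcription factors, which act upstream of S phase, 26 were tested, and 8 rose and 2 fell with the deletion in tumor, beside 15% called higher and 13.7% lower over all tested genes. Cdk2, the partner of cyclin E, rose from 165 ± 30.9 (SD, n = 3) to 586 ± 41.7 CPM (SD, n = 2), by 1.83 ± 0.15 (SE, adjusted p = 0.000144), and was also higher in control tumors than in LN (1.27 ± 0.14 (SE, adjusted p = 8.8e-05)). Its exons share 34 bases with those of the melanoma marker Pmel on the opposite strand, so its reads are uncertain. Ccnd1, cyclin D1, was at 0.232 ± 0.126 CPM in control LN, 0.612 ± 0.501 in MHCII-deleted LN, 17.2 ± 3.69 in control tumors and 74.8 ± 35.4 in MHCII-deleted tumors (SD, n = 3, 2, 3 and 2). Like the melanoma markers it was near 0 in the LN and highest in MHCII-deleted tumors, and the part of tumor cells in it was not tested. Cdk4 rose with the deletion by 0.93 ± 0.14 (SE, adjusted p = 0.00148) and E2f6 by 1.47 ± 0.20 (SE, adjusted p = 0.000826), while Cdk6 fell by -0.98 ± 0.17 (SE, adjusted p = 0.00258) and E2f4 by -0.67 ± 0.10 (SE, adjusted p = 0.0014). Of the exon bases of Cdk4, 19.7% overlap Tspan31. In the LN, Cdc25a, a phosphatase that activates the kinases, and Tfdp2, a partner of E2F, rose with the deletion by 0.98 ± 0.16 (SE, adjusted p = 0.0436) and 1.04 ± 0.20 (SE, adjusted p = 0.0497). Both calls were lost without any 1 of the 5 LN libraries, with the replicate block and with the GC index, where no gene at all was called in the LN.

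Genes that hold the cycle back were counted last. Of 21 CDK inhibitors, pocket proteins and quiescence genes, 20 were tested. In control tumors against LN 8 were higher and 2 lower, where 22.8% of all tested genes were called higher and 16.1% lower. With the deletion in tumor none rose and 5 fell, where 15% of all were called higher and 13.7% lower. Btg1, an antiproliferative gene, was at 659 ± 70.7 CPM in control LN, 1584 ± 80.9 in control tumors (SD, n = 3 each) and 761 ± 95 in MHCII-deleted tumors (SD, n = 2), a fall with the deletion of -1.06 ± 0.12 (SE, adjusted p = 0.000413). Btg2 and Gadd45b fell by -1.18 ± 0.17 (SE, adjusted p = 0.00124) and -1.56 ± 0.19 (SE, adjusted p = 0.000457). Cdkn1a, the inhibitor p21, was higher in tumor than LN in control mice by 5.08 ± 0.38 (SE, adjusted p = 1.07e-05) and in MHCII-deleted mice by 6.44 ± 0.50 (SE, adjusted p = 1.29e-05). Over the same libraries the pan-T cell markers, 24 of 24, fell with the deletion in tumor, with a median of -1.05 beside -0.23 over this list. Their part in these falls was not tested. Klf2, a factor of quiescent T cells, rose with the deletion in the LN by 3.94 ± 0.77 (SE, adjusted p = 0.0497), a call lost in those same alternatives (any 1 LN library left out, the replicate block, the GC index).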

How the data were processed

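RNA of sorted Tregs was measured in 10 libraries of 4 groups. Per the labels' protocols, cDNA was amplified with a SMARTer Ultra Low kit, libraries were made with Nextera XT, and single reads had 50 bases. Tools named in the submitters' processing notes are CASAVA (1.8.2), then STAR (2.4) and featureCounts (1.4.6), with GRCm38 as the build. The annotation release and the strand setting are not given in the sources used here. The table the authors deposited holds raw counts, not normalized, of 21556 Ensembl genes, all of which matched GENCODE M21.

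In R 4.3.3, filterByExpr of edgeR 4.0.16 (minimum count 10) kept 13920 genes. After TMM normalisation, a robust quasi-likelihood model was fitted to all 10 libraries with a mean for each of the 4 groups. Adjusted p-values (Benjamini-Hochberg) under 0.05 were called, and the SE is the log2 fold change over the square root of F. On counts simulated for the deletion effect in tumor over 13920 genes, the fit recovered 44 of 100 genes changed 2-fold and 83 of 100 changed 4-fold, with 6 false calls, so a gene without a call may still have changed by 2-fold.

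Alternatives were RLE size factors, DESeq2 1.42.0, limma-voom (limma 3.58.1) with quality weights, no filter, a non-robust spread, pan-T scaling, a replicate block, only the groups compared, each library left out and, chosen after seeing the data, the GC index as covariate. All 40 genes are named. Of each pathway list, up to 3 called genes per direction and comparison could be named, by lowest p, with at least 5 CPM in some group. The members and lists were chosen with earlier results of these data known. A count of 0 allows up to 3 counts, which is 0.0839 to 0.105 CPM by library and covers counting error only, since reads carry no molecular identifiers.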

Additional observations from a re-analysis of the deposited data

Results flagged for a closer look

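For 13 of the 40 genes the deletion effect in tumor was larger than that in LN by the test of the difference itself (edgeR's quasi-likelihood interaction term, adjusted over 13920 genes), which is why they are listed for a closer look. Their differences are given on the log2 scale, with both effects beside them and the range over the 10 omissions of a library.

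The 5 replication genes rose with the deletion in tumor, and none passed the test in LN. Cdc6, the licensing factor, differed by 1.58 ± 0.38 (SE, adjusted p = 0.029), from 1.04 in tumor and -0.54 in LN, with 1.32 to 1.9 over the omissions. For Mcm2, the helicase subunit, the difference was 0.76 ± 0.15 (SE, adjusted p = 0.0133), with 0.73 in tumor, -0.034 in LN and 0.67 to 0.86 over the omissions. Uhrf1, the guide of DNA methylation, differed by 0.85 ± 0.24 (SE, adjusted p = 0.0478), from 0.57 in tumor and -0.28 in LN, with 0.72 to 0.98 over the omissions. For Rrm1, the large reductase subunit, the difference was 0.74 ± 0.16 (SE, adjusted p = 0.02), with 0.55 in tumor, -0.20 in LN and 0.67 to 0.84 over the omissions. Rrm2, the small reductase subunit, differed by 1.26 ± 0.22 (SE, adjusted p = 0.00986), from 0.91 in tumor and -0.36 in LN, with 1.1 to 1.41 over the omissions. All 5 values stayed above 0 in every omission, which adds little, since the genes were picked by this test in these same libraries.

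The 8 mitotic genes likewise rose in tumor and did not pass the test in LN. For Ccnb2, cyclin B2, the difference was 0.82 ± 0.21 (SE, adjusted p = 0.0359), with 0.51 in tumor, -0.30 in LN and 0.64 to 0.97 over the omissions. Cdk1, the mitotic kinase, differed by 1.29 ± 0.35 (SE, adjusted p = 0.0448), from 1.2 in tumor and -0.10 in LN, with 1.09 to 1.46 over the omissions. For Plk1, the polo kinase, the difference was 1.48 ± 0.37 (SE, adjusted p = 0.0336), with 1.25 in tumor, -0.23 in LN and 1.3 to 1.7 over the omissions. Cdca3, the regulator of Wee1 breakdown, differed by 1.26 ± 0.27 (SE, adjusted p = 0.0194), from 0.87 in tumor and -0.39 in LN, with 1.11 to 1.43 over the omissions. All lay above 0 in every omission, with the same limit as for the replication genes. For Kif20a, the midzone kinesin, the difference was 1.23 ± 0.29 (SE, adjusted p = 0.0269), with 0.92 in tumor, -0.31 in LN and 1.06 to 1.4 over the omissions. Tpx2, the activator of Aurora A, differed by 0.95 ± 0.22 (SE, adjusted p = 0.0245), from 0.75 in tumor and -0.19 in LN, with 0.83 to 1.08 over the omissions. For Cenpf, the kinetochore protein, the difference was 1.17 ± 0.32 (SE, adjusted p = 0.0448), with 0.89 in tumor, -0.28 in LN and 0.89 to 1.4 over the omissions. Top2a, the topoisomerase, differed by 0.59 ± 0.16 (SE, adjusted p = 0.0429), from 0.37 in tumor and -0.21 in LN, with 0.49 to 0.68 over the omissions. Only Rrm2 was called in all 10 omissions. Melanoma markers differed between the tumor groups, from 4948, 5867 and 9625 to 19672 and 23903 CPM, and lay at 16.4 to 34.9 CPM in all LN libraries. Their part in these differences was not tested.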

How the results depend on the processing

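Each result was recomputed with RLE size factors, DESeq2, limma-voom, no filter, a non-robust spread, pan-T scaling, a replicate block, only the groups compared and each library left out, and, chosen after seeing the data, with the GC index as covariate. Where a value below differs from the report, the cause was not tested. Of 73 called gene values recomputed 1374 times, 1112 kept direction and call, 255 lost the call and 7 changed sign. Of the calls, 3 of 23 in the tumor deletion effect, 17 of 27 and 3 of 10 in the tissue effects of control and MHCII-deleted mice, and 1 of 13 in the interaction passed under every alternative that could be fitted.

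For the deletion effect in tumor (23 genes called higher), the count was 11 with limma-voom, 40 with pan-T scaling, 9 with only the groups compared, 4 with the GC index and 13 to 23 when each library was left out. The median log2 fold change of the replication genes was 1.39 with pan-T scaling, 0.12 with the GC index and 0.25 to 0.47 when each library was left out, and that of the mitotic genes was 1.83 with pan-T scaling and 0.6 to 0.76 when each library was left out. E2f1 changed sign with the GC index, to a log2 value of -0.14. Over all 13920 genes, the 2092 higher calls became 1823 with limma-voom, 9221 with pan-T scaling, 1132 with only the groups compared and 1072 with the GC index.

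For the deletion effect in LN, 1 gene was called higher with only the groups compared, where 787 of all 13920 genes were. The replication median was -0.3 with the GC index. Leaving out each library moved the medians from -0.21 to -0.08 for replication and from -0.29 to -0.1 for mitosis.

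For the tissue effect in control mice, 0 genes were called higher with the GC index, 17 were called lower with it, and leaving out each library gave 0 to 1 higher and 21 to 28 lower. Over all 13920 genes, the 3172 higher and 2237 lower calls became 1913 and 1077 with the GC index. When each library was left out, the medians ran from -0.58 to -0.36 for replication and from -0.95 to -0.74 for mitosis.

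For the tissue effect in MHCII-deleted mice, genes called lower numbered 2 with RLE, 3 with limma-voom, 0 with pan-T scaling, 3 with only the groups compared and 1 to 7 when each library was left out. Genes called higher numbered 7 with DESeq2, 39 with pan-T scaling, 6 with RLE, 6 with only the groups compared and 3 to 7 when each library was left out. Over all 13920 genes, the 3383 higher and 2792 lower calls became 4053 and 2600 with DESeq2 and 3710 and 2347 with RLE. They became 3692 and 2359 with limma-voom, 8836 and 348 with pan-T scaling, and 3032 and 2058 with only the groups compared. The replication median was 1.37 with pan-T scaling, 0.052 with the GC index and 0.09 to 0.26 when each library was left out. The mitotic median was 1.23 with pan-T scaling and -0.03 to 0.05 when each library was left out. Under pan-T scaling 6 genes changed sign, Mcm4 to a log2 value of 0.641, Mcm5 to 0.618, Mcm6 to 0.795, Mcm7 to 0.635, Cdca8 to 0.645 and Kif11 to 0.559.

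For the interaction (13 genes called higher), the count was 23 with DESeq2, 5 with limma-voom, 38 with pan-T scaling, 8 with the GC index and 1 to 13 when each library was left out. Over all 13920 genes, the 576 higher calls became 1260 with DESeq2, 464 with limma-voom, 5884 with pan-T scaling and 375 with the GC index. Medians of the replication and mitotic genes were 1.53 and 1.96 with pan-T scaling. They were 0.366 to 0.697 and 0.767 to 1.08 when each library was left out. The fit with only the groups compared was not run for the interaction, which uses all groups.

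Labels give the groups the same replicate numbers and do not say whether these pair the libraries. Over 13 same-number pairs the correlation of the deviations from group means ran from -0.15 to 0.05. In a group of 2 libraries the deviations mirror each other, so these values cannot decide whether the numbers pair the libraries. With the replicate number as a block, 19 genes were called higher in the tumor deletion effect and 8 in the interaction. Over all 13920 genes, 1524 and 404 were. In the tissue effect in control mice, 3 of the 27 calls were lost with the block (Bub1, Cdt1 and Stmn1), and 0 genes were called higher. Over all genes, 2880 were called higher and 2023 lower there. The replication median of the tumor deletion effect was 0.48 with the block. With 2 libraries in either MHCII-deleted group, leaving 1 out assumes that the lone library varies like those of the other groups.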
